A study of Mus musculus with 18 samples.

Results

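The claudins described here are the 10 members Cldn1, Cldn2, Cldn3, Cldn4, Cldn5, Cldn6, Cldn7, Cldn8, Cldn10 and Cldn11, measured in primary mouse mammary tumours. They were taken by name: every array feature whose platform annotation gave 1 of these symbols was used. This gave 10 features, 1 for each member, among 16887 named genes, so no member has a second probe to check it. The rule used gene names and no measured value, but the 10 are part of the 24 claudins on the array and were listed with earlier results of these data known, so their share of calls does not stand for the family.

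All 18 tumours were labelled as FVB mice carrying MMTV and Wnt1, and the 4 groups were Wnt1 alone (6 arrays), Wnt1 with iFGFR1 (4 arrays), Wnt1 with iFGFR2 (4 arrays) and Wnt1 with iR2 (4 arrays), called Wnt1, iFGFR1, iFGFR2 and iR2 below. MMTV is a viral promoter that is active in mammary epithelium and in some other epithelia, among them salivary gland. The labels do not expand iFGFR1, iFGFR2 or iR2, and they give no promoter for these receptors, no age and no inducing treatment, so iR2 was kept apart from iFGFR2. The series title names FGF receptor and Wnt-1 signalling, and the comparisons ask how tumours of the receptor groups differed from tumours with Wnt1 alone and from each other.

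Each array held tumour RNA labelled with Cy5 and RNA of whole mice labelled with Cy3, a reference common to all arrays. A value below is a log2 ratio of tumour over reference, so a positive value means a higher signal in the tumour than in whole-mouse RNA, and a difference of 1 between groups is a doubling of the ratio. The deposited table states neither the log base nor the direction; base 2 was assumed and the direction was read from the dyes. No value can be set against that of another claudin, because each ratio is relative to how much of that claudin the whole mouse holds. The table holds ratios without the brightness of the spots, so a dim probe cannot be told from a bright one.

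Claudins are small membrane proteins that cross the membrane several times and line up, cell against cell, into the strands of the tight junction. Some seal the space between epithelial cells, and others form pores that let selected ions pass, so the mix of claudins sets how leaky an epithelium is and to which ions. In the mammary gland the luminal cells carry tight junctions rich in Cldn3, Cldn4 and Cldn7, and low levels of claudins define the claudin-low class of breast tumours.

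The 250 bases before the start sites of Cldn1, Cldn7 and Cldn10 are shown because these are the 3 called members with the largest differences from Wnt1. The sequences are from RefSeq, assembly GRCm38.p6, written 5′ to 3′ on the strand of the gene, and 9 of the 10 members were in that table, with Cldn8 named only. Capitals mark the E-box CAGGTG on either strand, the letters bound by factors of the Snail, Zeb and Twist families.
Cldn1, chr16:26371840-26372089, minus strand: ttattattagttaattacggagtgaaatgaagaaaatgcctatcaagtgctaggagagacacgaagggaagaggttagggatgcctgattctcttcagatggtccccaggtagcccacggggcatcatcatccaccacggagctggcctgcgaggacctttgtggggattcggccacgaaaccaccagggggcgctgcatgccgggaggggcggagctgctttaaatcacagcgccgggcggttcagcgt
Cldn7, earlier start, chr11:69964529-69964778, plus strand: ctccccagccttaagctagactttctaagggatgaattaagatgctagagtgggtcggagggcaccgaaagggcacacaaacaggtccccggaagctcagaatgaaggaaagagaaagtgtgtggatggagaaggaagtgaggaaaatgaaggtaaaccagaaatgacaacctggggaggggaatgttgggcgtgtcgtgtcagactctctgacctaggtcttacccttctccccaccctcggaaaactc
Cldn7, later start, chr11:69965171-69965420, plus strand: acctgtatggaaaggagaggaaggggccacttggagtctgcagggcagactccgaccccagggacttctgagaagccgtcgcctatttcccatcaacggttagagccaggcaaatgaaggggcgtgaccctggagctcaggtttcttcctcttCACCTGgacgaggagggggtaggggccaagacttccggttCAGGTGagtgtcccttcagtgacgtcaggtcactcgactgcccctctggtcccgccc
Cldn10, earlier start, chr14:118787621-118787870, plus strand: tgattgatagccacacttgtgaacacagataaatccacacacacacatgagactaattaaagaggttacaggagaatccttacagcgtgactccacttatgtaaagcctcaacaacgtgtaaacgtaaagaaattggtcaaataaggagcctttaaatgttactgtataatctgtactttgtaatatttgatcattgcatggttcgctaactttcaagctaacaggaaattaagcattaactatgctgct
Cldn10, later start, chr14:118854700-118854949, plus strand: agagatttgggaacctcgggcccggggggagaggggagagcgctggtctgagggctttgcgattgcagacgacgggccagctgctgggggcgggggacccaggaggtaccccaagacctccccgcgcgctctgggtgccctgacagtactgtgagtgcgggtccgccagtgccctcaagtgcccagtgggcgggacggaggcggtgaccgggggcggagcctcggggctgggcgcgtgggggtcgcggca
The later start of Cldn7 held 2 E-boxes, beginning 97 and 57 bases before the start, and its earlier start held 0. CAGGTG was found in 17.2% of the 32851 windows of the same length in the table. The Cldn1 window and both Cldn10 windows held 0 matches to CAGGTG, to AACCNGTT, the letters bound by grainyhead-like factors, and to the TATA box TATAAA, each searched on both strands. AACCNGTT was in 1.79% and TATAAA in 12.4% of all windows. The 2 Cldn10 starts differ in composition, with 36.0% G or C and 4 CpG at the earlier and 72.4% and 22 CpG at the later. Cldn10 is known to be made in isoforms that form pores for cations or for anions from different start sites, and the sources used here do not say which of them the array feature reads. Among the other members, CAGGTG was present for Cldn4 and Cldn6, AACCNGTT for Cldn5 and TATAAA for Cldn2.

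Differences were tested with limma (lmFit and eBayes, all 18 arrays in 1 fit), with Benjamini-Hochberg adjustment over all 16887 genes and a threshold of 0.05, and every adjusted p below is from that fit unless another setting is named. A gene past the threshold is said to be called. The labels do not tie arrays to separate animals, so p-values set a difference only against the spread of these samples, and part of that spread may be technical. Over the 4 groups the F test called 4 of the 10 claudins, Cldn1 (adjusted p = 0.000136), Cldn10 (0.00100), Cldn7 (0.00185) and Cldn8 (0.00484), where it called 19.6% of all genes. Against Wnt1, 4 of 10 members were called in iFGFR1, all of them higher (Cldn1, Cldn3, Cldn7 and Cldn10), 1 in iFGFR2 (Cldn10) and 2 in iR2 (Cldn8 and Cldn10). The share of all genes called in either direction was 15.4% for iFGFR1, 3.43% for iFGFR2 and 7.10% for iR2, and the share called higher was 8.38%, 1.97% and 3.91%. These shares also stand beside every count of other genes called against Wnt1 below. In limma 0 of the 10 were called lower than in Wnt1. The share of all genes called lower is what remains of each share in either direction, and 0 of 10 lies near it. At an unadjusted p under 0.05, 6, 2 and 4 members were higher in iFGFR1, iFGFR2 and iR2, and 1, Cldn11 in iFGFR1, was lower. The median difference of the 10 members from Wnt1 was 0.78 in iFGFR1, 0.24 in iFGFR2 and 0.35 in iR2, beside medians over all genes of 0.02, 0.01 and -0.05, and 8 of 10 members lay above 0 in each. These 3 comparisons share the Wnt1 arrays, and so are not independent of each other.

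**Figure D1:**
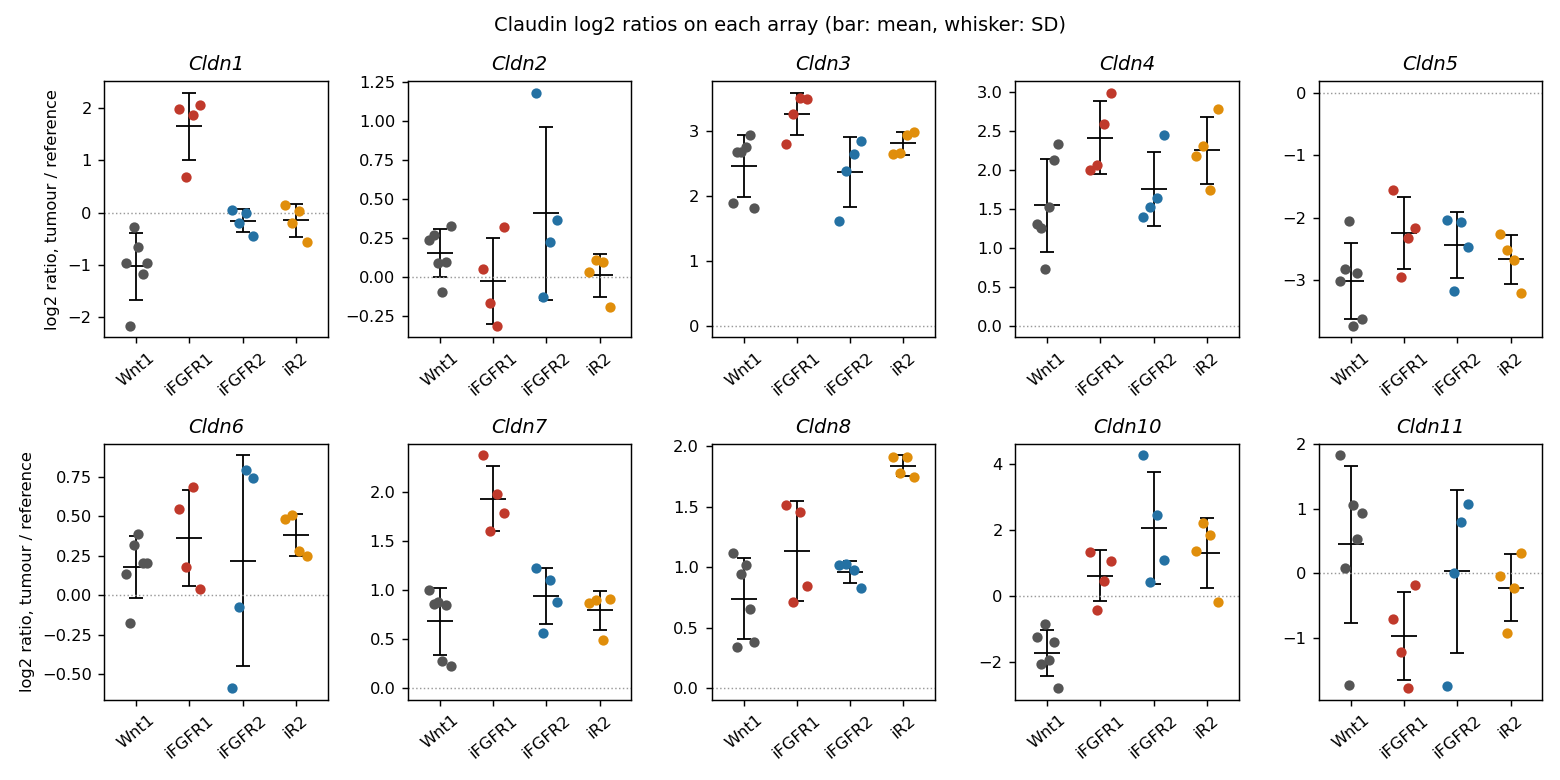
Each panel shows 1 claudin, with its log2 ratio of tumour over whole-mouse reference RNA on the vertical axis and the 4 tumour groups on the horizontal axis. Points are arrays, and the bars are group means with SD; Cldn10 lies below the reference on all 6 Wnt1 arrays and Cldn3, Cldn4, Cldn7 and Cldn8 lie above it on all 18 arrays.

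Whole-array measures bear on these values in a few places. Correlations between arrays over all features ran from 0.593 to 0.932, and the 4 iR2 arrays were the most alike. For 5 arrays the nearest array lay in another group: Wnt1 replicate 3, iFGFR1 replicate 2 and iFGFR2 replicates 1, 2 and 3, of which all but iFGFR1 replicate 2 were nearest to an iR2 array. Claudin calls that change without any 1 array are given beside the main ones. The spread of values within an array (interquartile range) was 0.769 to 0.844 in iR2 and 0.79 to 1.23 elsewhere. By SD the iR2 arrays ran from 1.14 to 1.2 and the others from 1 to 1.2. The sample titles carry a number, whose meaning the labels do not give, that is higher on all 4 iR2 arrays than on any other array, so it cannot be told apart from iR2.

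Cldn1, a sealing claudin of skin and many other epithelia, rose in iFGFR1. The 4 iFGFR1 arrays read 1.98, 0.69, 1.86 and 2.07, whereas the 6 Wnt1 arrays ran from -2.15 through a median of -0.96 to -0.27. The iFGFR2 arrays read 0.05, -0.20, -0.01 and -0.43, and the iR2 arrays 0.15, -0.19, 0.03 and -0.56. All 4 iFGFR1 arrays were above every array of the other 3 groups, and iFGFR1 replicate 2 was the lowest of them. The mean was 1.65 ± 0.65 (SD, n = 4) in iFGFR1 against -1.02 ± 0.64 (n = 6) in Wnt1, a difference of 2.67 (SE 0.30, 95% interval 2.04 to 3.31), or 6.38-fold, with an adjusted p of 1.43e-05 in limma.

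The order of the Cldn1 means was iFGFR1, then iR2 (-0.14 ± 0.31) and iFGFR2 (-0.15 ± 0.22), then Wnt1. The middle groups differed from each other by 0.01 with an interval of -0.69 to 0.70 (adjusted p = 0.996 in limma). Cldn1 was lower in iFGFR2 than in iFGFR1 by 3.48-fold (adjusted p = 0.00602) and lower in iR2 than in iFGFR1 by 3.46-fold (adjusted p = 0.00196, limma), the latter lost with the title number as a covariate (adjusted p = 0.116). Against Wnt1, the differences of 0.88 in iFGFR2 (adjusted p = 0.104) and 0.88 in iR2 (adjusted p = 0.0828) were not called, although 3 of 4 arrays of each group lay above all Wnt1 arrays. Both were called when Wnt1 replicate 3, the highest Wnt1 array for Cldn1, was left out, at 1.03 with adjusted p of 0.0383 and 0.0305. The difference in iR2 was also called with array weights (adjusted p = 0.00187), with each array scaled to a common spread (0.0340) and without iFGFR1 replicate 2 (0.0481).

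Cldn7, a claudin of luminal and other simple epithelia that also sits along the lateral membrane, also rose in iFGFR1. Its ratios were 2.38, 1.60, 1.98 and 1.79 in iFGFR1 and ran from 0.23 over the 6 Wnt1 arrays to a highest value of 1, with a median of 0.85. The iFGFR2 arrays read 1.22, 0.56, 1.10 and 0.88, and the iR2 arrays 0.87, 0.91, 0.49 and 0.91. Again the 4 iFGFR1 arrays were above all 14 others, while the arrays of the other 3 groups overlapped. The difference between iFGFR1 and Wnt1 was 1.25 (SE 0.21, 95% interval 0.82 to 1.68), or 2.38-fold, with an adjusted p of 0.000485 in limma.

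In iFGFR2 and iR2 the Cldn7 mean differed from Wnt1 by 0.26 (adjusted p = 0.506) and 0.11 (adjusted p = 0.809), with intervals of -0.17 to 0.69 and -0.32 to 0.54. Cldn7 was 1.99-fold lower in iFGFR2 than in iFGFR1 (adjusted p = 0.0231, limma) and 2.21-fold lower in iR2 than in iFGFR1 (adjusted p = 0.00283). The call in iR2 was lost with the title number (adjusted p = 0.275). That in iFGFR2 was lost with array weights (adjusted p = 0.0761), with each array scaled to a common spread (0.0526), with only the arrays compared (0.164), and without iFGFR1 replicate 1 or 3 or iFGFR2 replicate 2 or 4. Between iFGFR2 and iFGFR1 the 2 members called, Cldn1 and Cldn7, were both lower, where 2.13% of all genes were called and 0.924% were called lower.

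Cldn3 and Cldn4 are neighbouring genes on chromosome 5, with 0 protein-coding genes between them in the annotation, and both proteins bind an enterotoxin of Clostridium perfringens. Cldn3 read 2.80, 3.25, 3.51 and 3.49 in iFGFR1, and from 1.81 through 2.68 to 2.94 in Wnt1. It read 1.61, 2.39, 2.65 and 2.85 in iFGFR2, and 2.64, 2.66, 2.94 and 2.98 in iR2. On 3 of 4 iFGFR1 arrays Cldn3 was above all Wnt1 arrays, and the iFGFR2 and iR2 arrays overlapped with Wnt1. The rise in iFGFR1 was 0.80 (SE 0.26), or 1.74-fold, with an adjusted p of 0.0408 in limma. This call is close to the threshold: it was lost under 6 of 10 other settings, with adjusted p up to 0.471, and without 8 of the 18 arrays taken 1 at a time (Wnt1 replicate 1 or 6, iFGFR1 replicate 2, 3 or 4, or iR2 replicate 1, 2 or 3), with adjusted p up to 0.112.

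Cldn4 was 1.996, 2.06, 2.58 and 2.99 in iFGFR1 and ran from 0.72 through 1.41 to 2.33 in Wnt1. The iFGFR2 arrays read 1.40, 1.51, 1.63 and 2.44, and the iR2 arrays 2.17, 2.31, 1.74 and 2.78. All groups overlapped with Wnt1. The differences from Wnt1 were 0.86 (95% interval 0.23 to 1.497) in iFGFR1, 0.20 (-0.43 to 0.84) in iFGFR2 and 0.71 (0.08 to 1.34) in iR2, with adjusted p of 0.0589, 0.747 and 0.161 in limma, so none was called. The difference in iFGFR1 was called without Wnt1 replicate 5 or 6, iFGFR1 replicate 2 or iFGFR2 replicate 4 (adjusted p from 0.0313 to 0.0490), and that in iR2 with each array scaled to a common spread (1.14, adjusted p = 0.0137).

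**Figure D2:**
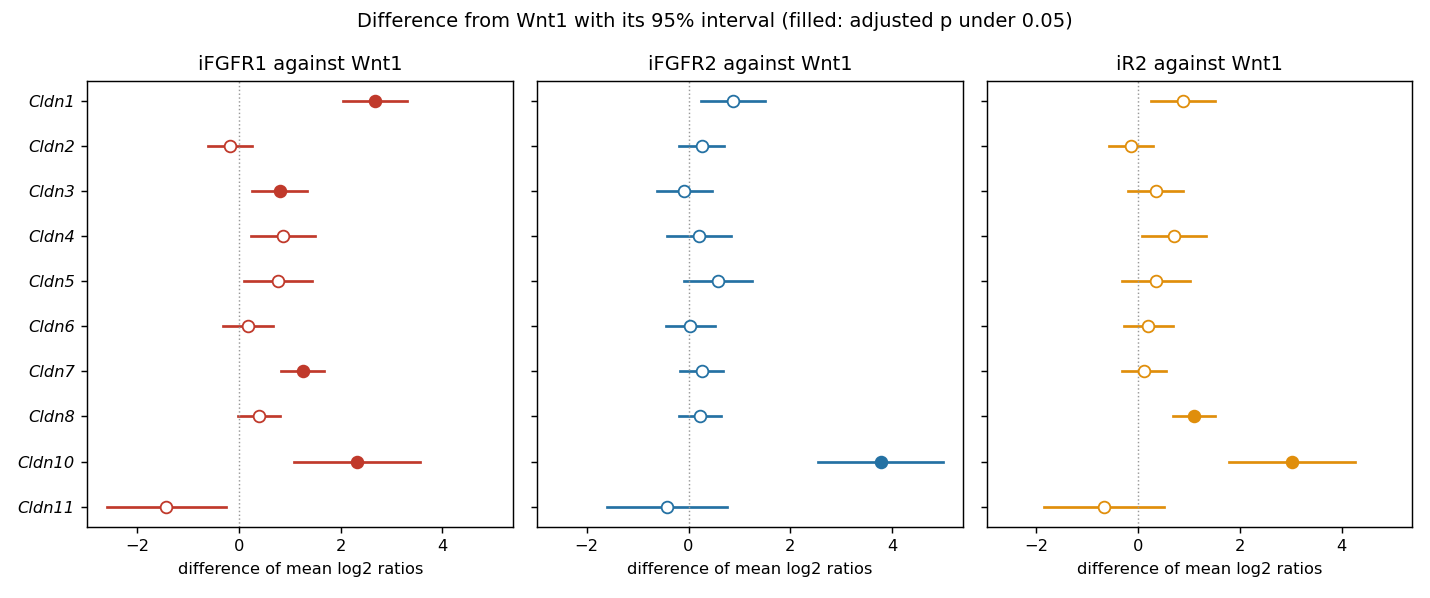
Differences of mean log2 ratio from Wnt1 for the 10 claudins in iFGFR1, iFGFR2 and iR2, with 95% confidence intervals; filled points were called at an adjusted p of 0.05. Cldn10 is the member with a filled point in all 3 groups, and Cldn1 in iFGFR1 lies at 2.67.

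Cldn10, a pore-forming claudin known from kidney, sweat and salivary glands, rose in all 3 receptor groups. On the 6 Wnt1 arrays it was below the reference throughout, from -2.79 through -1.66 to -0.85. It read 1.34, -0.41, 0.46 and 1.07 in iFGFR1, 4.26, 0.44, 2.45 and 1.11 in iFGFR2, and 1.38, 2.23, 1.84 and -0.19 in iR2. Every one of the 12 receptor arrays was above every Wnt1 array, and the widest spread was within iFGFR2, whose replicate 1 held the highest value of all 18. The rise over Wnt1 was 2.32 in iFGFR1 (SE 0.59, 5.01-fold, adjusted p = 0.0123), 3.77 in iFGFR2 (13.7-fold, adjusted p = 0.00375) and 3.02 in iR2 (8.13-fold, adjusted p = 0.00677), all from limma.

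The means of Cldn10 were ordered iFGFR2 (2.07 ± 1.69, n = 4), iR2 (1.31 ± 1.06, n = 4), iFGFR1 (0.62 ± 0.77, n = 4) and Wnt1 (-1.71 ± 0.69, n = 6). The 3 differences among the receptor groups were not called: iFGFR2 minus iFGFR1 was 1.45 (95% interval 0.10 to 2.80, unadjusted p = 0.0371, adjusted p = 0.271), iR2 minus iFGFR2 was -0.75 (95% interval -2.11 to 0.60, adjusted p = 0.639) and iR2 minus iFGFR1 was 0.70 (-0.66 to 2.05, adjusted p = 0.535) in limma. These intervals are wide and leave room for differences of over 1 log2 unit. At the threshold of 0.05, the calls in iFGFR1 and iFGFR2 were kept under all 10 other settings and without each of the 18 arrays in turn. Without 1 array the adjusted p reached 0.0470 in iFGFR1 and 0.0164 in iFGFR2. A threshold of 0.01 ended the call in iFGFR1. The call in iR2 was lost with the title number as a covariate (4.84, adjusted p = 0.0841).

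Some markers of salivary or sweat gland secretory cells, but not all, were called higher in the same groups as Cldn10. The list of these markers was drawn up with earlier results of these data known, so its share of calls does not stand for such cells. Of 6 such genes measured, 3 were called higher in iFGFR1 (Aqp5, Car6 and Scgb2b27), the same 3 and Dcpp1 in iFGFR2, and the same 3 in iR2, where Bpifa2 was called lower. Among them, the water channel Aqp5 rose by 3.28 in iFGFR1 (adjusted p = 1.43e-05), Dcpp1, named for demilune cells and parotid, by 2.49 in iFGFR2 (adjusted p = 0.0119), and the secreted carbonic anhydrase Car6 by 4.74 in iR2 (adjusted p = 0.000686), all in limma. The call of Dcpp1 was lost with array weights (adjusted p = 0.0960) and without iFGFR2 replicate 1, and that of Car6 in iR2 with the title number (0.0510). The mean ratio over the 6 genes ran from -2.23 to -1.91 on the Wnt1 arrays, from -0.80 to 0.34 in iFGFR1, from -0.42 to 0.75 in iFGFR2 and from -0.88 to 0.65 in iR2. Their part in the Cldn10 result was not tested. These are bulk samples, so for every gene here fewer cells of a type and less RNA per cell cannot be told apart.

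Cldn8, which in kidney acts with Cldn4 on the passage of chloride, was higher in iR2. Its ratios in iR2 were 1.92, 1.78, 1.91 and 1.75, against 0.34 through 0.80 to 1.12 in Wnt1. In iFGFR1 it read 1.52, 0.71, 1.46 and 0.85, and in iFGFR2 1.02, 1.02, 0.98 and 0.83. All 4 iR2 arrays were above the 14 others, and the other 3 groups overlapped. The rise over Wnt1 was 1.10 (SE 0.20, 95% interval 0.69 to 1.51), or 2.14-fold, with an adjusted p of 0.00392 in limma. This call was lost under 1 of 10 other settings, the title number as a covariate, where the difference was larger (1.82, adjusted p = 0.0510).

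Cldn8 was also higher in iR2 than in iFGFR1, by 1.63-fold (adjusted p = 0.0387), and than in iFGFR2, by 1.84-fold (adjusted p = 0.0473), in limma. Both calls lie near the threshold, and they were lost under 4 and 6 of 10 other settings (adjusted p up to 0.0707 and 0.153). Each was lost when any 1 of the 4 iR2 arrays was left out, the first also without iFGFR1 replicate 2 or 4, and the second also without any 1 iFGFR2 array or Wnt1 replicate 4, 5 or 6. The differences from Wnt1 were 0.39 in iFGFR1 (adjusted p = 0.190) and 0.22 in iFGFR2 (adjusted p = 0.564). Between iR2 and iFGFR1 the called members were Cldn1 and Cldn7, both lower, and Cldn8, higher, 3 of 10 where 11.7% of all genes were called, 4.81% higher and 6.84% lower. Between iR2 and iFGFR2 the member called was Cldn8, 1 of 10 where 1.34% of all genes were called and 0.272% were called higher.

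Cldn2, Cldn5, Cldn6 and Cldn11 were called in 0 of the 6 comparisons and not by the F test in limma. Cldn2, a claudin that forms cation and water pores in leaky epithelia, ran from -0.10 to 0.32 in Wnt1, -0.31 to 0.32 in iFGFR1, -0.13 to 1.18 in iFGFR2 and -0.19 to 0.11 in iR2. Its differences from Wnt1 were -0.18, 0.26 and -0.14 (SE 0.21 each). Cldn6, best known from embryonic epithelium, ran from -0.18 to 0.39 in Wnt1, 0.04 to 0.69 in iFGFR1, -0.59 to 0.79 in iFGFR2 and 0.25 to 0.51 in iR2. Its differences were 0.18, 0.04 and 0.20 (SE 0.23 each), and all groups overlapped.

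Cldn5, the main claudin of endothelium, was below the reference on all 18 arrays. It ran from -3.72 through -2.94 to -2.06 in Wnt1 and read -1.55, -2.95, -2.33 and -2.17 in iFGFR1, -2.04, -3.17, -2.08 and -2.47 in iFGFR2, and -2.27, -2.52, -2.67 and -3.20 in iR2. Its differences from Wnt1 were 0.77 (adjusted p = 0.111), 0.58 (0.311) and 0.35 (0.556), and the first was called without Wnt1 replicate 3 (0.96, adjusted p = 0.0303) or without iFGFR1 replicate 2 (adjusted p = 0.0444), and the third with array weights (0.63, adjusted p = 0.0435). Of 12 endothelial markers measured, 0 were called higher in any receptor group and 1, Eng, was called lower in iFGFR1, a call lost with the title number (adjusted p = 0.0520); at an unadjusted p under 0.05, 1 was higher and 1 lower in iFGFR1 and 1 lower in iR2. The endothelial defining markers Pecam1 and Tek were below the reference on all 18 arrays, and the third, Cdh5, on 9; the mean over the 12 ran from -1.50 to -0.41 in Wnt1, -1.32 to -0.68 in iFGFR1, -1.11 to -0.95 in iFGFR2 and -1.54 to -0.89 in iR2.

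Cldn11, the claudin of myelin and of Sertoli cells, had wide spreads within groups. It ran from -1.73 through 0.74 to 1.83 in Wnt1, and read -0.71, -1.21, -1.78 and -0.18 in iFGFR1, -1.74, 0.003, 0.80 and 1.07 in iFGFR2, and -0.04, -0.93, -0.23 and 0.31 in iR2. The lowest Wnt1 value was that of replicate 3. The difference between iFGFR1 and Wnt1 was -1.42 (SE 0.56, adjusted p = 0.0934, limma), and without Wnt1 replicate 3 it was -1.86 and called (adjusted p = 0.00987), as it was with array weights (-1.82, adjusted p = 0.0222). Of 7 Schwann cell and nerve markers measured, Nefm was called higher and Pmp22 lower in both iFGFR1 and iFGFR2, and 0 were called in iR2, where 4 were lower at an unadjusted p under 0.05. Their mean ran from -1.85 to -1.53 on the Wnt1 arrays, -1.89 to -1.61 on those of iFGFR1, -1.90 to -1.57 on those of iFGFR2 and -2.26 to -2.02 on those of iR2, and its part in the Cldn11 values was not tested.

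**Figure D3:**
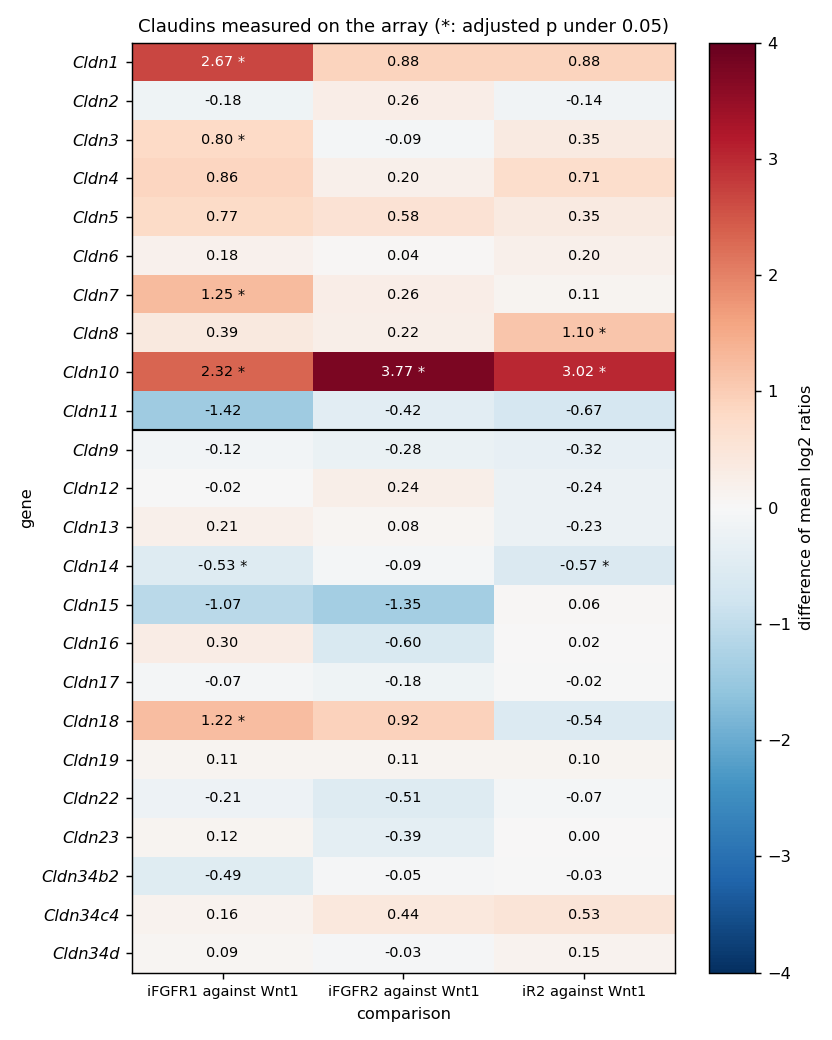
Differences of mean log2 ratio from Wnt1 in each receptor group for all 24 claudins measured, the 10 members first; colour gives the difference and an asterisk marks a call at an adjusted p of 0.05. Among the 14 claudins outside the members, asterisks stand at Cldn18 and Cldn14.

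The array carried 14 further claudins, of which the F test called 2 (14.3%, beside 19.6% of all genes), Cldn18 (adjusted p = 0.00765) and Cldn14 (0.0315). Cldn18, a claudin of stomach and lung, was below the reference on all 18 arrays and rose by 1.22 (SE 0.35, adjusted p = 0.0223, limma) in iFGFR1, with 3 of 4 arrays above all Wnt1 arrays, a call lost with array weights (adjusted p = 0.0569) and without Wnt1 replicate 2 or iFGFR1 replicate 1 or 2. It was lower in iR2 than in iFGFR1, with a difference of -1.77 (adjusted p = 0.00526). Cldn14, a claudin of the inner ear and kidney, fell by 0.53 in iFGFR1 (adjusted p = 0.0386) and by 0.57 in iR2 (adjusted p = 0.0444), and these calls were lost without 11 and 10 of the 18 arrays taken 1 at a time. Cldn16, which lies next to Cldn1 with 0 protein-coding genes between, was not called, with a mean of -0.51 in Wnt1 and -0.21 in iFGFR1. Over these 14 the median difference from Wnt1 was 0.03 for iFGFR1, -0.07 for iFGFR2 and -0.03 for iR2.

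Tight junctions hold other proteins beside claudins, among them the tetraspanning proteins occludin and tricellulin, the junctional adhesion molecules and the cytoplasmic plaque. Of 32 such genes measured, 4 were called higher and 1 lower in iFGFR1, 2 higher in iFGFR2 and 3 higher in iR2. Over all genes, 15.4%, 3.43% and 7.10% were called in these groups, so the counts lie near those shares. The F test called 7 of the 32 (21.9%), beside 19.6% of all genes. Ocln, which encodes occludin, ran from 0.06 through 0.20 to 0.66 in Wnt1 and from 0.97 to 1.49 in iFGFR1, 0.74 to 1.83 in iFGFR2 and 1.35 to 1.83 in iR2. All 12 receptor arrays were above all Wnt1 arrays, as for Cldn10. Ocln rose by 1.04 in iFGFR1 (SE 0.20, adjusted p = 0.00210), 1.14 in iFGFR2 (0.00670) and 1.37 in iR2 (0.00135), in limma, the last lost with the title number (adjusted p = 0.129). Marveld2, which encodes tricellulin of the corners where cells meet, rose by 0.76 in iFGFR1 (adjusted p = 0.00578) and 0.78 in iR2 (0.0119), the former lost with each array scaled to a common spread (0.0540) and the latter with the title number (0.367) and without iR2 replicate 3. Ybx3, a plaque-associated DNA-binding protein, rose by 0.91 in iFGFR1 (adjusted p = 0.00357), and Ildr1, an angulin of tricellular contacts, fell by 0.89 (0.0132). The remaining calls were all higher. Igsf5, an adhesion protein of the junction, rose by 1.94 in iFGFR1 (adjusted p = 0.0148, lost without replicate 1 of that group). Cgnl1, or paracingulin, rose by 0.76 in iFGFR2 (0.0439, lost under 6 of 10 other settings). Prkci, a polarity kinase, rose by 0.80 in iR2 (0.0193, lost under 2 of 10 other settings and without iR2 replicate 1, 2 or 3). The median difference of the 32 genes was 0.10, 0.13 and 0.29 in iFGFR1, iFGFR2 and iR2.

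Adherens junction and desmosome genes were counted in the same way. Of 17 measured, 1 was called higher (Pkp3) and 2 lower (Ctnnb1 and Nectin4) in iFGFR1, 0 in iFGFR2 (1 higher and 1 lower at an unadjusted p under 0.05), and 1 higher (Ctnnb1) and 1 lower (Nectin1) in iR2. The call of Pkp3 was kept under only 4 of 10 other settings and without 9 of the 18 arrays taken 1 at a time. That of Nectin1 was lost with the title number (adjusted p = 0.277) and kept without 11 of the 18 arrays taken 1 at a time. Over all genes, 15.4%, 3.43% and 7.10% were called in iFGFR1, iFGFR2 and iR2, shares that also stand beside the factors counted below. Ctnnb1, which encodes beta-catenin, fell by 0.84 in iFGFR1 (adjusted p = 0.00656, limma) and rose by 0.67 in iR2 (adjusted p = 0.0406), the former lost with the title number (adjusted p = 0.0714) and the latter under 2 of 10 other settings and without 8 of the 18 arrays taken 1 at a time. Of 14 factors named in the literature on claudin promoters, 2 were called lower in iFGFR1 (Snai2 and Grhl2), 0 in iFGFR2 (3 lower at an unadjusted p under 0.05) and 1 lower in iR2 (Twist1, -0.98, adjusted p = 0.0486, lost without 13 of the 18 arrays taken 1 at a time). Snai2, a repressor of the Snail family, ran from 0.81 to 1.83 in Wnt1 and from -0.58 to -0.16 in iFGFR1, a fall of 1.70 (SE 0.30, adjusted p = 0.000939) with all 4 arrays below every Wnt1 array. Grhl2, a grainyhead-like activator of epithelial genes, fell by 0.71 in iFGFR1 (adjusted p = 0.0469), a call lost under 7 of 10 other settings. Binding of these factors was not measured, and their part in the claudin values was not tested.

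Cell type markers also differed in iFGFR1, where most of the claudin calls were made. There 15.4% of all genes were called in either direction, beside 3.43% in iFGFR2 and 7.10% in iR2. Of 10 luminal epithelial markers measured, 3 were called higher in iFGFR1 (Krt8, Krt18 and Epcam), 1 in iFGFR2 (Kit) and 2 in iR2 (Krt18 and Kit), and 0 were called lower. The calls of Krt8, Krt18 and Epcam in iFGFR1 were each lost with each array scaled to a common spread, with the title number and with the compared arrays alone. The mean over these 10 ran from 1.195 to 2.50 on the Wnt1 arrays, 1.83 to 2.24 on those of iFGFR1, 1.73 to 2.12 on those of iFGFR2 and 2.02 to 2.10 on those of iR2. Of 10 fibroblast markers, 8 were called lower in iFGFR1, 1 in iFGFR2 and 1 in iR2, and their mean ran from -1.92 to -0.85 on the Wnt1 arrays, -3.33 to -2.63 on those of iFGFR1, -2.49 to -2.08 on those of iFGFR2 and -2.16 to -2.02 on those of iR2. Of 8 basal and myoepithelial markers, 1 was called higher and 3 lower in iFGFR1, 0 in iFGFR2 and 1 higher in iR2. Of 8 squamous keratinocyte markers, 2 were called higher in iFGFR1 (Krtdap and Calm4) and 0 in iFGFR2 and iR2, and their mean ran from -3.02 to -2.62 on the Wnt1 arrays, -2.62 to -1.86 on those of iFGFR1, -3.16 to -2.65 on those of iFGFR2 and -3.63 to -1.93 on those of iR2. The part of these cell types in the rise of Cldn1, Cldn3 and Cldn7 was not tested. Against Wnt1, of 4 adipocyte markers 0 were called (1 lower in iR2 at an unadjusted p under 0.05) and of 4 leukocyte markers 1, Cd3e, was called lower in iR2. The adipocyte marker Plin1 was called lower in iR2 than in iFGFR1 (-1.52, adjusted p = 0.0323).

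The genes with array profiles closest to each of the 4 claudins called by the F test were found by the root mean square difference over the 18 arrays, after each gene's own mean was subtracted. For Cldn1 these were Glrx (0.397), Afap1l1 (0.433) and Eif4ebp1 (0.439), a glutaredoxin, an actin-filament-associated protein and an inhibitor of cap-dependent translation, beside an SD of Cldn1 itself of 1.11. For Cldn7 they were Nup50 (0.269), Rars (0.284) and Mcur1 (0.294), beside an SD of 0.570. The genes nearest to Cldn8 were Tcf12 (0.231), Arntl (0.232) and Relch (0.236), beside an SD of 0.494. The nearest to Cldn10 were Spdef (0.727), an ETS factor of secretory epithelium, Hey1 (0.748), a target of Notch signalling, and Ddo (0.767), beside an SD of 1.84. The mean of Spdef was -0.43 for Wnt1, 1.71 for iFGFR1, 1.92 for iR2 and 2.395 for iFGFR2. For Hey1 the means were -0.26, 1.06, 2.25 and 2.95, and for Ddo -0.78, 0.8535, 0.845 and 1.75, in the same order. Spdef and Hey1 had the order of groups of Cldn10, and Ddo did not. All were picked for closeness to Cldn10 on these arrays, so likeness of their group means follows from the choice.

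**Figure D4:**
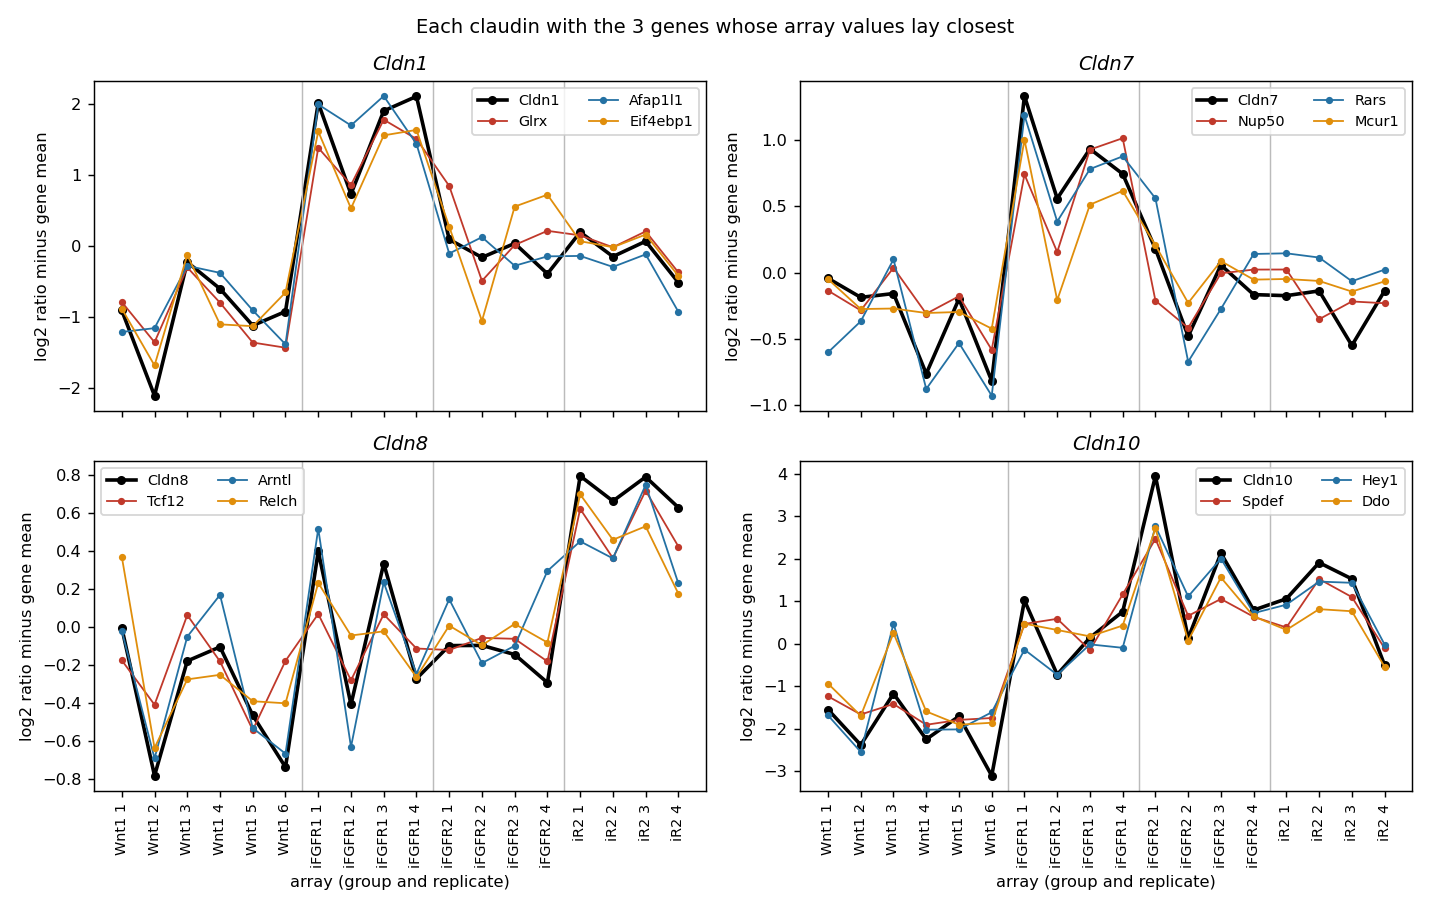
Each panel shows 1 of Cldn1, Cldn7, Cldn8 and Cldn10 with the 3 genes nearest to it, as log2 ratios with each gene's own mean subtracted, over the 18 arrays set out by group on the horizontal axis. The 4 iFGFR1 arrays stand highest for Cldn1 and Cldn7, the 4 iR2 arrays for Cldn8, and the 6 Wnt1 arrays lowest for Cldn10.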

How the data were processed

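The authors' deposited table gives log2 ratios (the base is a reading, not stated) of tumour over reference for 22575 features on 18 arrays. Tumour RNA was extracted with a column kit and reference RNA with TRIZOL, per the labels' protocols. For the scanner, the background correction and the normalization, the sources used here give no method; the values had 0 empty cells, and column medians lay between -0.023 and 0.009.

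Groups came from the source label of the tumour channel. Replicate numbers follow accession order and pair nothing. Features were named through the platform annotation (18658 with 1 symbol, 30 with several, 3887 with none), and features of 1 symbol were averaged into 16887 genes. Tests used limma 3.58.1 (R 4.3.3) with Benjamini-Hochberg adjustment within each comparison. The number of arrays limits the precision. The script was tested on simulated data.

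The members and lists were chosen with earlier results of these data known. Every member was named, as were other claudins called, at most 4 genes per list called by the F test with the smallest p, and the 3 nearest profiles for members called by the F test whose group means spanned over 1 log2 unit. Other genes named beside a count (among them Grhl2, Twist1, Igsf5, Cgnl1, Prkci, Pkp3, Nectin1, Krt8, Epcam, Pecam1, Tek, Plin1, Cd3e and Cldn16), and other comparisons of the named genes, were chosen after their values were seen. GRCm38.p6 from RefSeq gave promoter sequences and gene neighbours. Alternatives changed normalization between arrays, weights, prior, probe choice, variance filter, threshold, covariate, arrays in the fit and each array left out.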

Additional observations from a re-analysis of the deposited data

Results flagged for a closer look

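Within groups of 4 arrays, a value far from the other 3 was found for 6 of 72 combinations of group and claudin checked over 24 claudins, and among the 6 Wnt1 arrays for 0 of 24, where chance gives about 1 in 20. In iFGFR1, replicate 2 read 0.69 for Cldn1 with the others at 1.86 to 2.07, and 0.39 for Cldn23 with the others at 1.45 to 1.59. In iR2, replicate 3 read 0.49 for Cldn7 with the others at 0.87 to 0.91, and 0.23 for Cldn34d with the others at 0.07 to 0.09. Also in iR2, replicate 4 read -0.32 for Cldn12 with the others at -0.16 to -0.13, and replicate 2 read -1.95 for Cldn13 with the others at -1.32 to -1.23.

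The effect of the receptor group over Wnt1 differed between receptor groups for 3 of the 10 members and for Cldn18, by the limma test of the difference. These are the same tests as the comparisons between receptor groups above, since Wnt1 drops out. Over all genes, 2.13% were called between iFGFR2 and iFGFR1, 11.7% between iR2 and iFGFR1 and 1.34% between iR2 and iFGFR2. For Cldn1, the effect was 0.88 in iFGFR2 and 2.67 in iFGFR1, a difference of -1.80 (adjusted p = 0.00602), and 0.88 in iR2, a difference from iFGFR1 of -1.79 (adjusted p = 0.00196). The latter call was lost with the title number as a covariate (adjusted p = 0.116). For Cldn7, the effect was 0.26 in iFGFR2 and 1.25 in iFGFR1, a difference of -0.995 (adjusted p = 0.0231), and 0.11 in iR2, a difference of -1.14 (adjusted p = 0.00283). The former call was kept under 7 of 10 other settings and without 14 of the 18 arrays taken 1 at a time. The latter was lost with the title number (adjusted p = 0.275). For Cldn8, the effect was 1.10 in iR2, 0.39 in iFGFR1 and 0.22 in iFGFR2, with differences of 0.71 (adjusted p = 0.0387) and 0.88 (adjusted p = 0.0473). The former call was kept under 6 of 10 other settings and the latter under 4 of 10. Each was lost when any 1 iR2 array was left out. For Cldn18, the effect was -0.54 in iR2 and 1.22 in iFGFR1, a difference of -1.77 (adjusted p = 0.00526), lost with the title number as a covariate (adjusted p = 0.172).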

How the results depend on the processing

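Of 93 single-gene differences carried through the alternatives, 64 were called, and 0 of these changed sign under any alternative; 12 of the 29 not called did. The calls of Cldn1, Cldn7 and Cldn10 in iFGFR1 and of Cldn10 in iFGFR2, all against Wnt1, and of Cldn1 between iFGFR2 and iFGFR1 were kept under 10 other settings and without each array. These 10 settings keep the threshold of 0.05, and at 0.01 the call of Cldn10 in iFGFR1 was lost. The count of members called in iFGFR1 against Wnt1 was 2 at a threshold of 0.01 in place of 4, and in iR2 against Wnt1 it was 4 with scaling to 1 median absolute deviation or with array weights and 0 with the title number, in place of 2. Between iFGFR2 and iFGFR1 it was 1 in place of 2 with that scaling, array weights, the threshold of 0.01 and the compared arrays alone. Between iR2 and iFGFR1 it was 0 in place of 3 with the title number. Between iR2 and iFGFR2 it was 3 in place of 1 with the scaling and 0 with quantile normalization, the trended prior, the most variable probe, features fitted by themselves, the variance filter, the threshold of 0.01 and the title number. Leaving out 1 array gave counts of 3 to 6, 1 to 2 and 2 to 3 against Wnt1 (iFGFR1, iFGFR2, iR2), 1 to 2 for iFGFR2 against iFGFR1, 2 to 3 for iR2 against iFGFR1, 0 to 1 for iR2 against iFGFR2 and 4 to 5 for the F test. The highest counts against Wnt1 came without Wnt1 replicate 3.

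Sign changes were all among differences not called. With the title number they were Cldn4 (-0.25) and Cldn6 (-0.10) in iFGFR2, Cldn3 (-0.24), Cldn4 (-0.91) and Cldn6 (-0.31) in iR2, and Cldn7 (0.35) and Cldn10 (0.56) for iR2 against iFGFR2. Cldn3 in iFGFR2 was 0.055 with quantile normalization and 0.054 with array weights, and Cldn5 in iR2 was -0.12 with the scaling. For iR2 against iFGFR2, Cldn1 was -0.005 with median centring, -0.016 with quantile normalization and -0.038 with the scaling, and Cldn7 was 0.10 with the scaling. Without 1 array, the differences in iFGFR2 ran from -0.0015 to 0.44 for Cldn2, -0.24 to 0.17 for Cldn3, -0.028 to 0.36 for Cldn4, -0.15 to 0.31 for Cldn6 and -0.86 to 0.17 for Cldn11, and for Cldn1 between iR2 and iFGFR2 from -0.093 to 0.14. The cause was not tested. No paired analysis was possible because the replicate numbers follow accession order. Ratios without spot brightness give no signal over background.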
